A study of Mus musculus with 12 samples.

Results

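The voltage-gated sodium and calcium channel genes described here are the 40 genes, of 55385 in the table of the study, whose symbols name a subunit of these channels. They are defined by symbol alone (Scn with a number and a or b, and Cacna1, Cacna2d, Cacnb and Cacng with their suffixes). The rule itself uses no measured value, but the set was chosen with earlier results of these data known. Among the genes, 14 belong to sodium channels and 26 to calcium channels or to the gamma family that was first found with them. Of the 40 genes, 35 had a mean FPKM (fragments mapped to a gene, scaled for transcript length and for library depth) of at least 0.1 and were tested, as were 21393 genes in all.

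RNA of the whole brain was sequenced from wild-type male C57/BL6J mice, 3 in each of 4 groups, with 1 library per mouse, and the mice were 8 weeks old when bought. The C_W group was unstressed and was given water, and the C_O group was unstressed and received, over 5 weeks, a daily dose of krill oil of 200 mg/kg. The MS_W group went through chronic unpredicted mild stress (CUMS) for 4 weeks and was given water, and the MS_O group went through CUMS and was given the oil. All groups shared the strain, the sex and daily dosing into the stomach with the same volume. A library is named by its group and mouse number, and 3 values of a group are given in the order C_W1, C_W64 and C_W70, then C_O15, C_O30 and C_O72, then MS_W31, MS_W75 and MS_W95, then MS_O13, MS_O46 and MS_O78.

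Voltage-gated sodium channels open when the membrane depolarizes and carry the upstroke of the action potential. Their pore is a single alpha subunit, and small beta subunits tune gating and hold the channel at the axon. Voltage-gated calcium channels turn depolarization into calcium entry, which drives transmitter release, dendritic spikes and gene expression. Their pore subunits fall into L-type channels, the P/Q-, N- and R-type channels that serve release, and the T-type channels that open at low voltage and shape bursts. The alpha2delta and beta subunits bring the L-, P/Q-, N- and R-type pores to the membrane, and most gamma proteins of the brain act as auxiliary subunits of AMPA receptors (TARPs).

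The library totals of the estimated counts ran from 50912906 to 75678721 (median 59331216), and the channel genes took between 0.312% and 0.442% of them. All 3 C_W libraries (at least 69768244) were deeper than all 3 MS_W libraries (at most 61608502). The tissue label was checked against markers of brain regions, and 2 libraries stood apart. In C_O72 and MS_W95 the 6 cerebellum markers had a mean log2(FPKM + 1) of 5.28 and 7.16, and the 5 hindbrain markers 3.14 and 2.73. In the other 10 libraries, which carry the same whole-brain label, the cerebellum list was at most 1.22 and the hindbrain list at most 0.11, and the hindbrain regulator Hoxc4 was listed at 0.0001, the value of the table for a gene without signal. The cortex list was 2.68 and 2.46 in C_O72 and MS_W95 and at least 3.71 in the other 10. For this reason the main counts and the called genes below are also given on the 10 libraries that remain when both are left out.

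**Figure D1:**
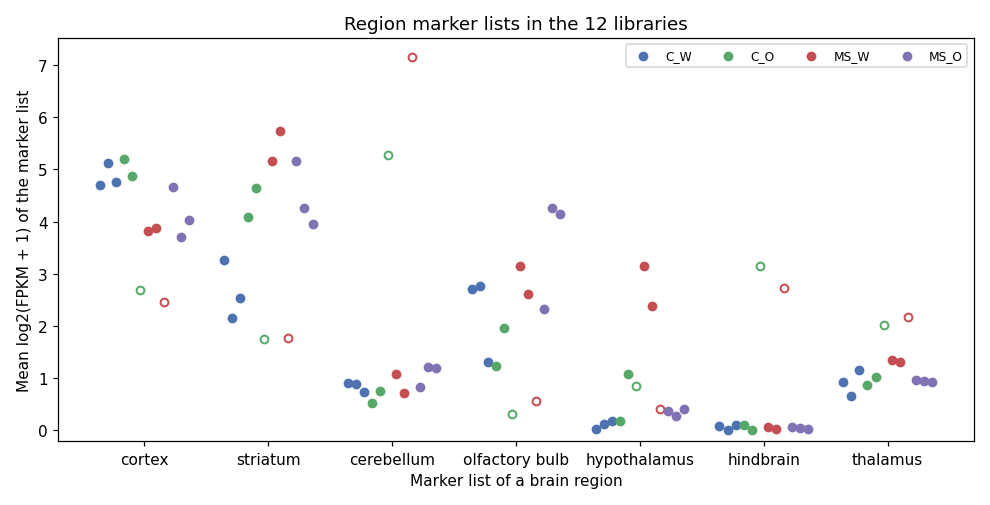
Mean log2(FPKM + 1) of 7 lists of brain region markers (x axis) in each of the 12 libraries, coloured by group, with C_O72 and MS_W95 as open circles. The open circles are the highest points of the cerebellum, hindbrain and thalamus lists and the lowest of the cortex, striatum and olfactory bulb lists, and the highest hypothalamus values (3.14 and 2.38) belong to MS_W31 and MS_W75.

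Among the sodium channel beta subunits, Scn2b, which is linked to the pore by a disulfide bond, ranged from 31.2 to 79.4 and Scn3b from 1.21 to 15.2. Scn3b was among the 5 channel genes with the widest range, at 4.17, 11.04 and 4.47 in C_W, 4.47, 7.3 and 1.21 in C_O, 7.3, 15.2 and 5.16 in MS_W, and 5.05, 7.37 and 13.6 in MS_O. Its lowest library was C_O72, and the other libraries spread within every group.

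Among the pore subunits of sodium channels, Scn8a (Nav1.6 of the mature axon initial segment), Scn1a (Nav1.1 of fast-spiking interneurons) and Scn2a (Nav1.2 of excitatory neurons) were the highest. Scn1a had 8.85, 8.68 and 13.4 in C_W, 10.2, 9.24 and 13.9 in C_O, 7.91, 8.62 and 11.5 in MS_W, and 10.996, 7.53 and 6.89 in MS_O, so that the 4 groups overlapped, and Scn2a ranged from 2.59 in C_O72 to 18.1 in C_W70. Scn3a, which is used mainly before birth, ranged from 0.588 to 4.07. Scn7a stayed between 0.199 and 0.517. The skeletal muscle channel Scn4a and the sensory neuron channels Scn10a and Scn11a had a mean FPKM below 0.1 and were not tested. Markers of skeletal muscle and of sensory ganglia were low as well, with 4 genes each and a mean log2(FPKM + 1) of at most 0.982 and 0.209 in the 10 libraries. The exception was the muscle marker Acta1, with an FPKM between 4.17 and 6.77 in these libraries. In C_O72 and MS_W95 the sensory ganglion list was at 1.23 and 0.855, of which Prph, a neurofilament also made in motor neurons of the hindbrain, had an FPKM of 24.7 and 7.08.

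Pore subunits of calcium channels were of middle abundance. The P/Q-type pore Cacna1a (Cav2.1) had 11.04, 12.5 and 11.7 in C_W, 14.6, 10.4 and 9.87 in C_O, 8.41, 7.88 and 19.5 in MS_W, and 8.78, 8.72 and 9.54 in MS_O, with its highest value in MS_W95. The N-type pore Cacna1b (Cav2.2) had 8.42, 10.6 and 9.48 in C_W, 10.6, 11.3 and 4.51 in C_O, 10.3, 8.71 and 6.42 in MS_W, and 9.46, 8.01 and 6.31 in MS_O, lowest in C_O72. The R-type pore Cacna1e (Cav2.3) had 6.09, 7.04 and 8.74 in C_W, 7.14, 10.3 and 2.44 in C_O, 8.69, 7.29 and 1.05 in MS_W, and 6.82, 2.35 and 7.7 in MS_O, and its 3 lowest libraries were MS_W95, MS_O46 and C_O72. Of the T-type pores, Cacna1i (Cav3.3) had 13.4, 14.3 and 11.6 in C_W, 14.9, 11.2 and 4.97 in C_O, 12.3, 9.86 and 9.31 in MS_W, and 11.8, 17.7 and 18.3 in MS_O. It was highest in MS_O46 and MS_O78. Cacna1g (Cav3.1) had 7.96, 10.2 and 8.82 in C_W, 8.46, 6.16 and 7.41 in C_O, 8.84, 5.92 and 18.1 in MS_W, and 7.00, 9.83 and 11.1 in MS_O, and MS_W95 was the highest. Among L-type pores, Cacna1c (Cav1.2) had 3.00, 4.41 and 2.52 in C_W, 2.96, 4.37 and 1.64 in C_O, 4.78, 3.4 and 2.74 in MS_W, and 2.75, 7.05 and 6.64 in MS_O. MS_O46 and MS_O78 were again the highest, and C_O72 was the lowest. The retinal pore Cacna1f was at most 0.0455 and was not tested, and the 4 retina markers had a mean log2(FPKM + 1) of at most 0.174.

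Some auxiliary subunits of calcium channels reached higher levels than any of the pores. Cacnb3 had 83.1, 82.2 and 67.4 in C_W, 75.2, 79.2 and 10.1 in C_O, 64.6, 56.7 and 14.9 in MS_W, and 74.5, 91.4 and 94.5 in MS_O and Cacnb1 had 36.4, 35.8 and 34.97 in C_W, 38.2, 38.5 and 10.8 in C_O, 33.8, 33.8 and 9.56 in MS_W, and 37.9, 23.5 and 28.8 in MS_O. For both, C_O72 and MS_W95 lay far below the other 10 libraries. Cacnb2 stayed between 2.7 and 3.8, the narrowest range among genes whose mean FPKM was 1 or more. Cacnb4, in which mutations cause the lethargic mouse, is singled out here after its values were seen, at 16.9, 18.03 and 20.02 in C_W, 19.8, 2.66 and 8.2 in C_O, 12.2, 2.62 and 16.3 in MS_W, and 16.1, 11.04 and 11.1 in MS_O. It was low in C_O30 and MS_W75, neither of which belongs to the pair that stood apart, and between 8.2 and 20 in the other 10 libraries, and its exons overlap those of A430018G15Rik on the opposite strand. The alpha2delta subunit Cacna2d3 had 7.99, 7.11 and 8.27 in C_W, 10.5, 8.31 and 6.91 in C_O, 8.69, 12.4 and 5.08 in MS_W, and 10.9, 5.47 and 5.05 in MS_O, which overlapped between all groups. Cacna2d1, a binding site of gabapentin, ranged from 0.75 to 6.89 and Cacna2d4 from 0.214 to 0.447.

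Among the gamma genes, the TARP Cacng7 had 99.7, 91.3 and 80.7 in C_W, 85.5, 106 and 95.3 in C_O, 89.7, 88.3 and 108 in MS_W, and 81.2, 142 and 151 in MS_O. MS_O46 and MS_O78 were the 2 highest. Cacng3, a TARP of cortex and hippocampus, had 23.8, 49.5 and 51.6 in C_W, 51.9, 58.4 and 4.91 in C_O, 40.6, 41.1 and 7.43 in MS_W, and 53.2, 30.8 and 16.6 in MS_O. C_O72 and MS_W95 were the lowest, and the other 10 were at least 16.6. Cacng2 (stargazin) ranged from 6.58 to 17.1 and Cacng8 from 4.85 to 22.7. The gamma subunit of the skeletal muscle channel, Cacng1, had an FPKM of 0.105, 0.0001 and 0.0001 in C_W, 0.0001, 0.0458 and 0.0001 in C_O, 0.281, 0.154 and 0.0001 in MS_W, and 0.237, 0.047 and 0.0001 in MS_O and was not tested.

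**Figure D2:**
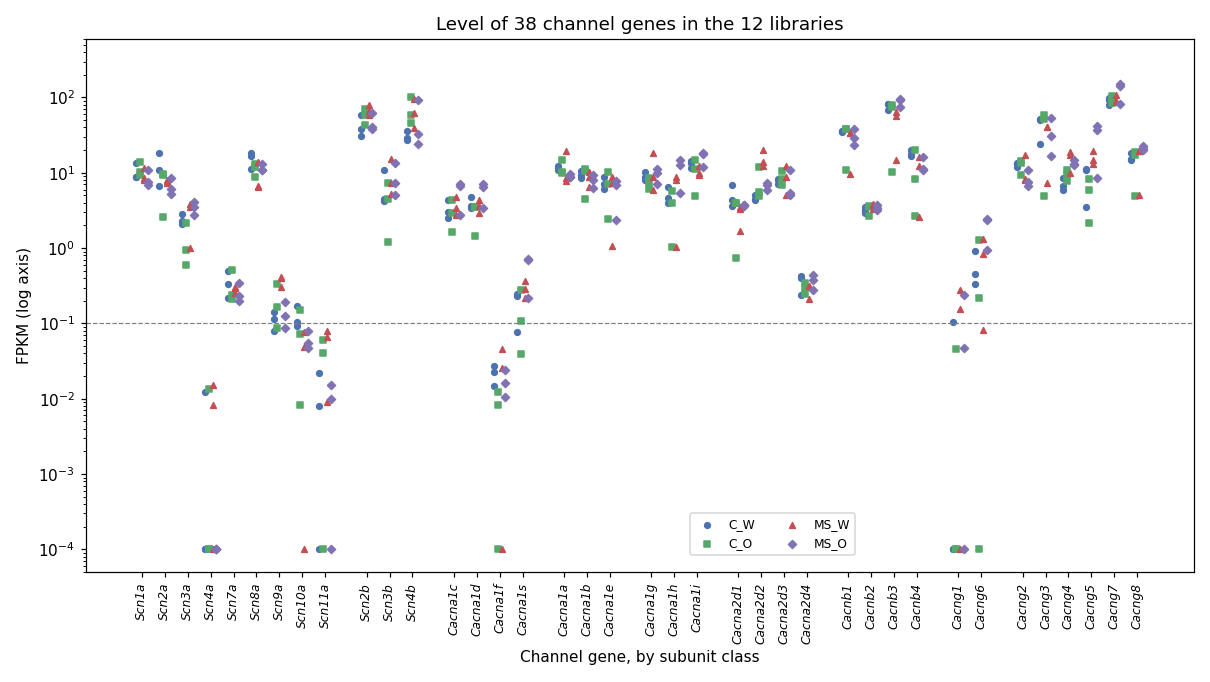
FPKM (log axis) of 38 channel genes (x axis, by subunit class) in each of the 12 libraries, with 1 point per library coloured and shaped by group and a dashed line at the mean FPKM of 0.1 needed for a test. Cacng7, with a mean of 102, is the highest gene shown, and 5 lie below the line by their mean; points at 0.0001 are genes listed without signal.

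The letters just upstream of a start site are given for the 4 genes called in all 12 libraries that have the largest log2 fold changes and an entry in the RefSeq promoter table of GRCm38.p6 (30 of the 40 genes have one). These 4 genes differ in base composition. Capitals mark the letters of a TATA box (TATAAA) or a GC box (GGGCGG) on either strand, each line holds 250 bases that end at the base before the start, and each is written along the strand of its gene.
Cacng5, chr11:107915056-107915305, minus strand: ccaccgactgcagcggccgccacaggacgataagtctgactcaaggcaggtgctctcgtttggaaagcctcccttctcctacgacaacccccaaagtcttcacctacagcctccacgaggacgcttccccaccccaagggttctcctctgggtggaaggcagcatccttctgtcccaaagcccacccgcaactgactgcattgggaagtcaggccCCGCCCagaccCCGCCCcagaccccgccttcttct
Cacna2d2, chr9:107399630-107399879, plus strand: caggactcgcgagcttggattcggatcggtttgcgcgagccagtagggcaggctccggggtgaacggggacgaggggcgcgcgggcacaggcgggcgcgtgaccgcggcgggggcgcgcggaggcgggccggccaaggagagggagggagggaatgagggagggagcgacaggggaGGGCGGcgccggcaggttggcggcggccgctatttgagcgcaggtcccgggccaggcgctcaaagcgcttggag
Cacng6, chr7:3424412-3424661, plus strand: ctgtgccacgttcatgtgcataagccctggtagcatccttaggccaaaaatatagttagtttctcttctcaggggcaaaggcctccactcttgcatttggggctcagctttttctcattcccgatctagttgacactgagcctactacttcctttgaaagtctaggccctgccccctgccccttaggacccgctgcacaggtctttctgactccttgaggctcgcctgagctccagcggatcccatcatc
Cacna1d, chr14:30491157-30491406, minus strand: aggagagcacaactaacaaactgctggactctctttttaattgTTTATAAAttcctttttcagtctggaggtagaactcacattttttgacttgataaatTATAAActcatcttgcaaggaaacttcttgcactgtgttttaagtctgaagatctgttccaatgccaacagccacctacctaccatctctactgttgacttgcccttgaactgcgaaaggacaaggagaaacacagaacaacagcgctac

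The window of Cacna2d2 was 74.4% G or C with 34 CG pairs and held 1 GC box, and that of Cacng5 was 62% G or C with 12 CG pairs and held 2 GC boxes, read as CCGCCC along its strand. The window of Cacna1d was 39.6% G or C with 2 CG pairs and held 3 matches to the TATA box, 2 of which overlap on opposite strands. The window of Cacng6 (52.8% G or C, 5 CG pairs) held neither. Over the 32851 promoters of the table, the same 250 bases held a TATA box in 12.4% and a GC box in 32.7%, and the third motif searched, TAATTA, which none of the 4 windows held, in 4.84%. The RefSeq start of Cacng5 is 0 bases from the gene start in the table of the study. Those of Cacna2d2, Cacng6 and Cacna1d lie 268, 467 and 299 bases inside the gene, so that their windows lie within the gene as the table draws it, and which start was used in these brains was not measured.

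The first comparison asked how CUMS without the oil changed the channel genes. In MS_W the alpha2delta subunit Cacna2d2 was 3.33-fold, the TARP Cacng4 2.18-fold and the sodium channel pore Scn9a 3.34-fold as high as in C_W by mean FPKM. These 3 of the 35 tested genes, or 8.57%, met the DEG criteria of the study (p before adjustment under 0.05, and group means that differ by more than 1 on the log2 scale), against 4.59% of all tested genes (2.5% higher and 2.1% lower). Here p is from limma, whereas the study used Ballgown, so the genes called are not its own list of DEGs. The 2 groups did not overlap for 25.7% of the channel genes (5 higher and 4 lower in MS_W), against 24.6% of all tested genes (16.3% and 8.22%). The median log2 fold change (log2FC, the difference of mean log2(FPKM + 1)) was -0.07 over the channel genes and 0.06 over all tested genes. No channel gene passed an adjusted p of 0.05 in limma, where 0.00467% of all tested genes did. An unadjusted p under 0.05 was reached by 6 channel genes, or 17.1% against 10.5% of all tested genes. On the estimated counts edgeR called 0 and DESeq2 called 3 channel genes after adjustment, against 1 and 389 of all 21393 tested genes.

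Cacna2d2 (ENSMUSG00000010066, chromosome 9, 107399612 to 107529343, in mm10 as are all gene positions here) encodes the alpha2delta-2 subunit, the form of cerebellar Purkinje cells that is lost in the ducky mouse. Its FPKM was 4.36, 4.43 and 5.07 in C_W, 5.54, 4.91 and 11.8 in C_O, 12.2, 13.7 and 20.2 in MS_W, and 5.85, 7.32 and 6.82 in MS_O. All 3 MS_W libraries were above every other library, and C_O72 was the next highest. Its log2FC in MS_W against C_W was 1.51 (SE 0.27, limma, adjusted p = 0.127), and it was called by the DEG criteria with any 1 of the 6 libraries left out. MS_W95 and C_O72, the highest of their groups, also had the highest cerebellum lists, while in MS_W31 and MS_W75 that list was at 1.08 and 0.71, within the range of the other libraries. Without C_O72 and MS_W95 the log2FC was 1.31 (SE 0.11, adjusted p = 0.00193). Over all alternatives it ran from 1.24 to 1.68 and the adjusted p from 8.59e-05 in DESeq2 to 1.0 in the linear model per gene.

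Cacng4 (ENSMUSG00000020723, chromosome 11, 107732357 to 107794557), a TARP that is also found in glia and in young brain, had an FPKM of 8.44, 6.67 and 5.98 in C_W, 7.87, 10.8 and 9.41 in C_O, 16.995, 18.9 and 10.05 in MS_W, and 12.8, 13.2 and 14.9 in MS_O. The 3 MS_W libraries lay above the 3 C_W libraries, with MS_W31 and MS_W75 highest of all 12 and MS_W95 close to the C_O values. The log2FC was 0.99 (SE 0.21, adjusted p = 0.21), and without C_O72 and MS_W95 it was 1.25 (SE 0.16, adjusted p = 0.0123). Without MS_W75 its log2FC was 0.82 (adjusted p = 0.446), and the DEG criteria were not met. Over all alternatives the adjusted p of Cacng4 ran from 0.0103 in DESeq2 to 1.0 in the linear model per gene with library size as a covariate, where its sign turned (-0.95). Scn9a (ENSMUSG00000075316, chromosome 2, 66480080 to 66634952), the Nav1.7 pore of pain-sensing neurons, was low throughout, at 0.0797, 0.116 and 0.141 in C_W, 0.0863, 0.164 and 0.332 in C_O, 0.419, 0.307 and 0.397 in MS_W, and 0.193, 0.0862 and 0.127 in MS_O. MS_W was above C_W and MS_O in every library, and C_O72 reached the MS_W range. Its log2FC was 0.30 (SE 0.08, adjusted p = 0.282), and without the 2 libraries 0.29 (SE 0.07, adjusted p = 0.105). Of its exons, some overlap Gm13629 on the opposite strand, and those of Cacna2d2 overlap Gm17141 on the opposite strand.

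The 10 libraries without C_O72 and MS_W95 gave more calls. By the DEG criteria 6 channel genes were called (17.1% against 5.81% of all tested genes), 5 higher and 1 lower in MS_W (3.49% and 2.31% of all tested genes), and 3 passed an adjusted p of 0.05 against 1.15% of all tested genes. With 2 MS_W libraries against 3, the groups did not overlap for 12 genes that were higher and 9 that were lower, or 60% against 38.8% of all tested genes (25.2% and 13.7%). Cacna2d2 and Cacng4 were among the genes past the adjusted threshold.

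Scn8a (ENSMUSG00000023033, chromosome 15, 100869858 to 101045938) was the only channel gene lower in MS_W by the DEG criteria in the 10 libraries, with an FPKM of 18.4, 11.1 and 16.9 in C_W, 11.8, 8.78 and 13.1 in C_O, 6.51, 6.67 and 14.1 in MS_W, and 10.9, 10.9 and 13.2 in MS_O. MS_W31 and MS_W75 were the lowest of all 12, and MS_W95 lay within the C_W range. Its log2FC was -1.09 (SE 0.20, adjusted p = 0.0515) in the 10 libraries and -0.76 (SE 0.28, adjusted p = 0.395) in all 12. Scn4b (ENSMUSG00000046480, chromosome 9, 45138395 to 45154152), the beta subunit that gives striatal and Purkinje neurons resurgent current, had an FPKM of 35.7, 27.4 and 28.9 in C_W, 58.3, 46.1 and 102 in C_O, 62.1, 95.9 and 39.2 in MS_W, and 93.1, 32.9 and 23.8 in MS_O. All MS_W and C_O libraries were above all C_W libraries, and MS_O13 was far above MS_O46 and MS_O78. Its log2FC was 1.31 (SE 0.49, adjusted p = 0.256) in the 10 libraries and 0.99 (SE 0.48, adjusted p = 0.497) in all 12.

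Region markers differed between the same libraries, in step with some of these genes and not with others. Cacna2d2 and Scn9a were high in all 3 MS_W libraries, whereas Cacng4 was highest and Scn8a lowest in MS_W31 and MS_W75. The summed FPKM of the 6 hypothalamus markers was 93.8 and 95.3 in MS_W31 and MS_W75, 2.16 in MS_W95 and between 0.133 and 0.92 in C_W, where Hcrt and Sim1 were listed at 0.0001 in every library. In C_O the sum was 0.891, 13.1 and 6.18, and in MS_O it was between 1.45 and 2.84. The 6 striatum markers summed to 318 and 479 in MS_W31 and MS_W75, to 60.1 in MS_W95 and to between 46.2 and 96.3 in C_W. The 6 cortex markers had a mean log2(FPKM + 1) of 3.82 and 3.87 in MS_W31 and MS_W75 and of at least 4.70 in C_W. The part of these regions in the channel results was not tested. In RNA of a whole tissue, more cells of a type and more RNA per cell cannot be told apart, and the depth difference between C_W and MS_W cannot be told apart from the groups either.

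**Figure D3:**
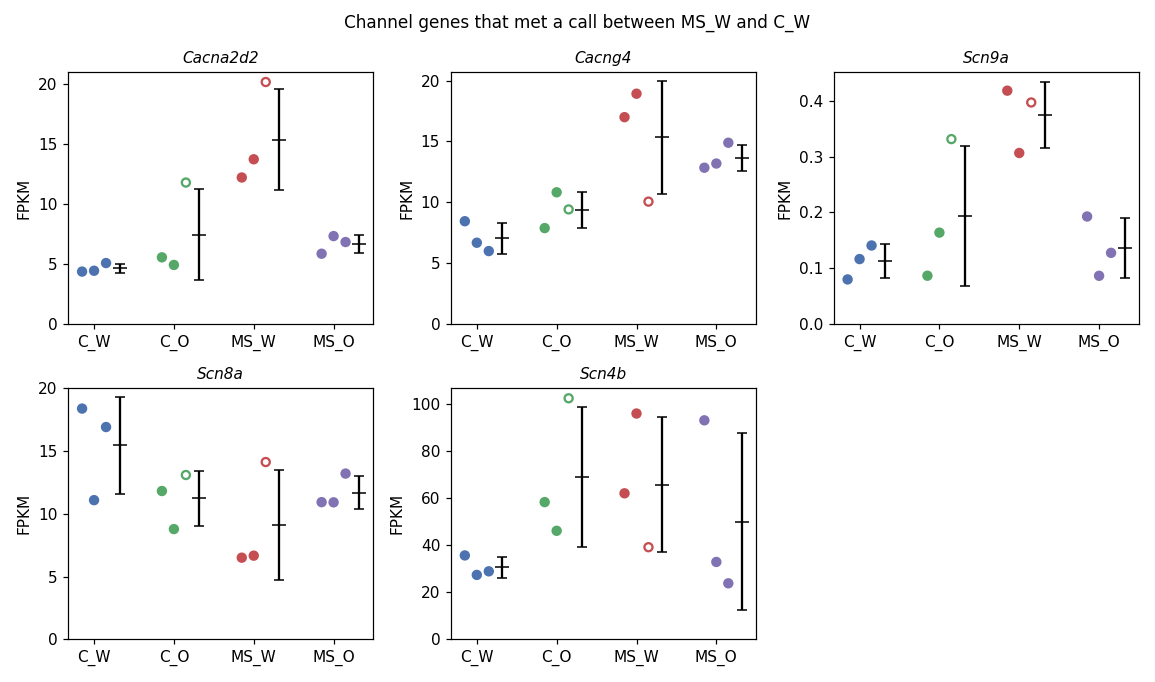
FPKM of 5 channel genes that met a call between MS_W and C_W in the 12 or in the 10 libraries, with 1 point per library, C_O72 and MS_W95 as open circles, and bars for the mean and SD of all 3 libraries of a group. Cacna2d2 is higher in all 3 MS_W libraries (12.2 to 20.2) than anywhere else, while for Cacng4, Scn8a and Scn4b the open MS_W circle lies nearer to C_W than the filled ones.

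By class, the other channel genes of MS_W against C_W went both ways. Of the 4 sodium channel beta subunits, 3 had a log2FC above 0, with a log2FC of 0.70 (SE 0.27, adjusted p = 0.412) for Scn2b (-3.60 in the linear model with library size). All 3 P/Q-, N- and R-type pores and 3 of the 4 calcium channel beta subunits were below 0. The TARPs were split, 3 above and 3 below 0. Of these 3 pores only Cacna1a was below 0 in the 10 libraries, and Cacna1e, with an FPKM of 1.05 in MS_W95, went from a log2FC of -0.58 to 0.13. There 4 of the 6 TARPs were above 0, and the beta subunit counts of both channels were the same.

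Partners of the channels were counted in the same fit, from 8 lists of 35 genes (intracellular FGFs, the axon initial segment, RGK GTPases, calmodulin and its kinases, presynaptic proteins, the NALCN leak channel, Stac adaptors and AMPA receptor subunits). In MS_W against C_W, 3 met the DEG criteria higher and 2 lower (14.3% of the partners against 4.59% of all tested genes), and none passed the adjusted threshold. Rem2, an RGK GTPase that inhibits high-voltage calcium channels, had 2.08, 1.98 and 2.09 in C_W, 3.55, 3.76 and 2.45 in C_O, 6.43, 9.86 and 1.96 in MS_W, and 5.76, 4.18 and 3.32 in MS_O. Only MS_W31 and MS_W75 stood above 6, and MS_W95 was the lowest of all. Stac, an adaptor of L-type channels, had 0.33, 0.892 and 0.498 in C_W, 0.19, 0.811 and 1.75 in C_O, 2.18, 1.99 and 5.44 in MS_W, and 0.387, 2.03 and 3.02 in MS_O, and Fgf11, an intracellular FGF, had 6.46, 6.47 and 5.28 in C_W, 5.86, 8.39 and 18.3 in C_O, 12.5, 14.9 and 18.9 in MS_W, and 7.94, 12.9 and 11.1 in MS_O. For both, the MS_W libraries lay above the C_W libraries. Stac2 had 61.01, 58.2 and 62.2 in C_W, 63.8, 26.6 and 37.1 in C_O, 27.96, 26.2 and 18.6 in MS_W, and 49.4, 47.6 and 48.6 in MS_O, and Cabp1, a calmodulin-like protein that acts on calcium channels, had 25.3, 30.5 and 28.8 in C_W, 28.1, 26.9 and 14.2 in C_O, 13.1, 12.9 and 11.5 in MS_W, and 24.7, 18.7 and 21.7 in MS_O. Both were lower in every MS_W library than in any C_W library. Their log2FC values were 1.02 (SE 0.39, adjusted p = 0.409) for Rem2, 1.34 (SE 0.44, adjusted p = 0.357) for Stac, 1.20 (SE 0.33, adjusted p = 0.285) for Fgf11, -1.30 (SE 0.26, adjusted p = 0.169) for Stac2 and -1.11 (SE 0.22, adjusted p = 0.169) for Cabp1. With 10 libraries, 4 partners met the DEG criteria higher and 3 lower (20% against 5.81% of all tested genes), and Rem2 (adjusted p = 0.0135) and Cabp1 (adjusted p = 0.00655) passed the adjusted threshold. The partners added there were the RGK GTPase Rrad and the release protein Stx1a. Rrad had 0.762, 0.595 and 0.504 in C_W, 0.285, 0.776 and 0.868 in C_O, 1.31, 1.37 and 0.848 in MS_W, and 0.945, 0.873 and 1.07 in MS_O, and Stx1a had 116, 110.01 and 121 in C_W, 118, 113 and 4.64 in C_O, 51.8, 50.1 and 5.36 in MS_W, and 94.7, 41.8 and 55.8 in MS_O. MS_W31 and MS_W75 were the highest libraries for Rrad, and for Stx1a they lay below every C_W library but far above C_O72 and MS_W95. In the 10 libraries the log2FC was 0.53 (SE 0.14, adjusted p = 0.133) for Rrad and -1.17 (SE 0.27, adjusted p = 0.0999) for Stx1a.

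The second comparison set CUMS against no stress in mice given the oil. In MS_O, Cacng5 was 5.28-fold, Cacna1s 3.87-fold, Cacng6 3.78-fold, Cacna1h 3.03-fold, Scn3a 2.78-fold and Cacna1d 2-fold as high as in C_O by mean FPKM. These 6 genes, or 17.1% of the 35, met the DEG criteria, all higher in MS_O, against 3.57% of all tested genes (2.82% higher and 0.753% lower). Nonetheless the groups did not overlap for 14.3% of the channel genes (4 higher and 1 lower), against 12.2% of all tested genes (8.9% and 3.29%), and 4 of the 6 genes overlapped. The median log2FC was 0.24 over the channel genes and 0.03 over all tested genes. After adjustment limma called 0 channel genes and 0.00467% of all tested genes, edgeR called 0 and DESeq2 called 1. Over all 21393 tested genes edgeR called 1 and DESeq2 172. In limma, 8 channel genes had an unadjusted p under 0.05 (22.9% against 8.88% of all tested genes).

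Cacng5 (ENSMUSG00000040373, chromosome 11, 107874605 to 107915055), a TARP of type II, had the widest range among channel genes whose mean FPKM was 1 or more, at 10.9, 11.4 and 3.55 in C_W, 2.15, 8.37 and 5.9 in C_O, 19.6, 12.9 and 14.8 in MS_W, and 8.64, 41.6 and 36.5 in MS_O. MS_O46 and MS_O78 were the highest of all libraries, MS_O13 was near the C_W values, and all 3 MS_O libraries were above all 3 C_O libraries. Its log2FC was 2.08 (SE 0.61, adjusted p = 0.479) and 2.20 (SE 0.75, adjusted p = 0.335) without C_O72 and MS_W95, and over all alternatives the adjusted p ran from 0.029 in DESeq2 to 0.957. Cacng6 (ENSMUSG00000078815, chromosome 7, 3424195 to 3435667), a gamma subunit of striated muscle channels, had an FPKM of 0.46, 0.91 and 0.333 in C_W, 0.216, 1.29 and 0.0001 in C_O, 0.846, 1.31 and 0.082 in MS_W, and 0.942, 2.34 and 2.42 in MS_O. Again MS_O46 and MS_O78 were the highest, and MS_O13 lay below C_O30. The log2FC was 1.00 (SE 0.36, adjusted p = 0.499) and 0.75 without the 2 libraries, where the DEG criteria were not met. Skeletal muscle markers had a mean log2(FPKM + 1) of 0.835, 0.823 and 0.865 in MS_O and of 0.982, 0.827 and 0.47 in C_O. Among them Acta1 had an FPKM of 6.32, 5.07 and 5.63 in MS_O and of 6.77, 4.81 and 0.364 in C_O. It was the highest of these markers there except in C_O72, while Ckm was listed at 0.0001 in some libraries.

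Pores of the L and T type were the other called calcium channel genes. Cacna1h (ENSMUSG00000024112, chromosome 17, 25374285 to 25433783), the T-type pore Cav3.2, had an FPKM of 4.64, 6.57 and 3.93 in C_W, 3.94, 5.81 and 1.03 in C_O, 8.85, 8.01 and 1.04 in MS_W, and 5.38, 14.6 and 12.7 in MS_O. MS_O46 and MS_O78 were the highest, and the lowest were C_O72 and MS_W95, both near 1.03. Its log2FC was 1.44 (SE 0.63, adjusted p = 0.554) and 0.93 (SE 0.36, adjusted p = 0.345) without these 2. Cacna1d (ENSMUSG00000015968, chromosome 14, 30039939 to 30491455), the L-type pore Cav1.3, had 3.61, 4.8 and 3.42 in C_W, 3.47, 3.5 and 1.46 in C_O, 4.37, 3.62 and 2.92 in MS_W, and 3.42, 7.07 and 6.39 in MS_O. MS_O13 lay below C_O15 and C_O30, and the log2FC was 0.80 (SE 0.28, adjusted p = 0.479) with all libraries and 0.52 without the 2, where it was not called. Exons of Cacna1d, Cacna1s and Cacna1h overlap another gene on the opposite strand, and whether the counting used strand is not stated, so reads of the pairs cannot be told apart. Cacna1s (ENSMUSG00000026407, chromosome 1, 136052750 to 136119535), the L-type pore of skeletal muscle, had 0.233, 0.249 and 0.0763 in C_W, 0.107, 0.279 and 0.0392 in C_O, 0.369, 0.282 and 0.216 in MS_W, and 0.218, 0.70 and 0.726 in MS_O. Only MS_O46 and MS_O78 passed an FPKM of 0.5, and the log2FC was 0.43 (SE 0.14, adjusted p = 0.479).

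Scn3a (ENSMUSG00000057182, chromosome 2, 65457118 to 65567627) had an FPKM of 2.08, 2.85 and 2.29 in C_W, 2.19, 0.936 and 0.588 in C_O, 3.87, 3.55 and 0.99 in MS_W, and 2.77, 4.07 and 3.47 in MS_O. All 3 MS_O libraries were above all 3 C_O libraries, in which C_O72 was the lowest. The log2FC was 1.04 (SE 0.34, adjusted p = 0.479) and 0.83 (SE 0.22, adjusted p = 0.335) without the 2 libraries. Cacng5 and Cacna1s were called by the DEG criteria with any 1 of the 6 libraries left out, and each of the other 4 lost the call without C_O72 alone. The count of called channel genes was 2 without C_O72, 3 without MS_O46 or without MS_O78, 8 without MS_O13 or without C_O30, and 4 without C_O15. In the 10 libraries the count of called channel genes was 4, all higher in MS_O (11.4% against 4.28% of all tested genes, 3.19% higher and 1.09% lower), namely Cacng5, Cacna1h, Cacna1s and Scn3a. There the groups did not overlap for 5 genes that were higher and 5 that were lower (28.6% against 26.8% of all tested genes, 18.9% higher and 7.9% lower). After adjustment limma called 0 channel genes against 0.014% of all tested genes, and 10 had an unadjusted p under 0.05 (28.6% against 13.6% of all tested genes).

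The count of called channel genes fell most without C_O72, and next without MS_O46 or without MS_O78. In MS_O46 and MS_O78 every called gene was above every C_O library, and the olfactory bulb list was the highest. The 5 markers summed to an FPKM of 94.7 and 89.3 there, to 21.2 in MS_O13 and to 8.82, 16.3 and 1.68 in C_O, where C_O72 listed Dlx2 and Dlx5 at 0.0001. Most of the C_O72 sum was the marker Eomes, at 1.47, which was above C_O15 (0.0205) and C_O30 (1.21). None of the 5 markers was at 0.0001 in MS_O. The part of this region in the channel results was not tested. Cacng6, Cacng8 and Cacng7 are neighbours on chromosome 7, and each had its 2 highest FPKM values in MS_O46 and MS_O78.

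**Figure D4:**
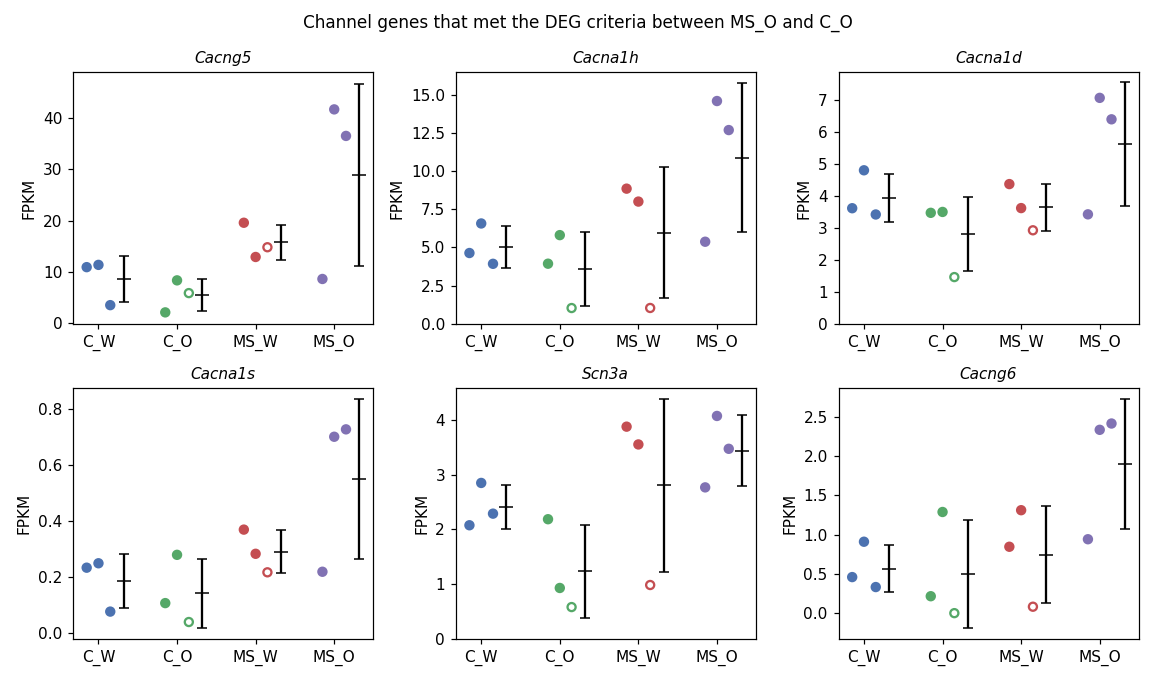
FPKM of the 6 channel genes that met the DEG criteria between MS_O and C_O, with 1 point per library, C_O72 and MS_W95 as open circles, and bars for the mean and SD of all 3 libraries of a group. In each panel MS_O13 is the lowest MS_O point, and MS_O46 and MS_O78 lie above every C_O point, with Cacng5 at 41.6 and 36.5.

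By class, all 4 calcium channel beta subunits, all 3 L-type and all 3 T-type pores and 5 of the 6 TARPs had a log2FC above 0, whereas all 3 P/Q-, N- and R-type pores and 3 of the 4 sodium channel beta subunits were below 0. In the 10 libraries the calcium channel beta subunits were split, 2 above and 2 below 0, and 4 of the 6 TARPs were above 0, while the counts of the other classes named were the same. Cacnb1 went from a log2FC of 0.21 with all libraries, where C_O72 had an FPKM of 10.8, to -0.37 in the 10. Cacna1a was lower in every MS_O library (at most 9.54) than in any C_O library (at least 9.87), with a log2FC of -0.32 (SE 0.27, adjusted p = 0.747). Cacng4 was higher in every MS_O than in any C_O library, with a log2FC of 0.51 (SE 0.21, adjusted p = 0.548). Among the partners 1 met the DEG criteria, the RGK GTPase Rem1, which was lower in MS_O at 0.162, 0.163 and 0.0813 in C_W, 0.294, 0.215 and 0.219 in C_O, 0.269, 0.156 and 0.0251 in MS_W, and 0.145, 0.0001 and 0.105 in MS_O, with a log2FC of -0.20 (SE 0.09, adjusted p = 0.554). That is 2.86% of the partners against 3.57% of all tested genes. With 10 libraries, Rem1 was joined by another RGK GTPase, Gem, which was higher in MS_O (5.71% against 4.28% of all tested genes). Gem had 1.04, 1.25 and 0.726 in C_W, 0.577, 0.425 and 2.3 in C_O, 1.46, 1.33 and 0.514 in MS_W, and 0.777, 2.6 and 1.88 in MS_O, with a log2FC of 0.82 (SE 0.26, adjusted p = 0.335) in the 10 libraries, and C_O72 was higher than MS_O78.

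The oil in unstressed mice gave no call. In C_O against C_W, 0 of the 35 channel genes met the DEG criteria against 1.76% of all tested genes (0.865% higher and 0.897% lower), and 0 had an unadjusted p under 0.05 against 3.55% of all tested genes. After adjustment limma, edgeR and DESeq2 each called 0 channel genes, against 0, 0 and 54 of all 21393 tested genes. The median log2FC was -0.15 over the channel genes and 0.00 over all tested genes, with 25 of the 35 below 0, and without C_O72 and MS_W95 it was 0.02 with 16 below 0. No channel gene met the DEG criteria there either (1.64% of all tested genes did), and 1 had an unadjusted p under 0.05 (2.86% against 4.06%). The groups did not overlap for 1 gene, or 2.86% against 9.42% of all tested genes (4.08% higher and 5.34% lower). In the 10 libraries, with 2 C_O libraries against 3, it was 5 genes, all higher in C_O (14.3% against 19.3% of all tested genes, 8.32% higher and 11% lower), which were Scn4b, Cacna1b, Cacna2d3, Cacnb1 and Cacng3. The gene of the 12 libraries was Scn4b, at 68.95 ± 29.6 in C_O and 30.7 ± 4.4 in C_W (mean FPKM ± SD, n = 3), with a log2FC of 1.07 (SE 0.48, adjusted p = 0.908). The striatum markers, whose neurons are known for Scn4b, summed to 158, 242 and 47.3 in C_O and to 96.3, 46.2 and 50.1 in C_W. The highest Scn4b value of C_O was in C_O72, the library with the lowest sum of its group. Among the 10 libraries without C_O72 and MS_W95, MS_W75 and MS_O13 had the highest Scn4b (95.9 and 93.1) and the highest sums (479 and 338). The part of this region in the Scn4b values was not tested.

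Oil given to stressed mice was compared by MS_O against MS_W. Cacna2d2 was lower in MS_O, at 6.66 ± 0.748 against 15.4 ± 4.23 (mean FPKM ± SD, n = 3), and so was Scn9a, at 0.135 ± 0.0537 against 0.374 ± 0.0594. Both met the DEG criteria (5.71% of the channel genes against 2.81% of all tested genes, of which 1.43% higher and 1.39% lower), and neither overlapped between the groups. The log2FC was -1.07 (SE 0.27, adjusted p = 0.547) for Cacna2d2 and -0.28 (SE 0.08, adjusted p = 0.695) for Scn9a. After adjustment limma called 0 channel genes and 0.00467% of all tested genes, edgeR called 0 and DESeq2 called 1, which was Cacna2d2. Over all 21393 tested genes edgeR called 1 and DESeq2 79. In limma, only Cacna2d2 and Scn9a had an unadjusted p under 0.05 (6.09% of all tested genes did). The groups did not overlap for 14.3% of the channel genes, against 12.3% of all tested genes (4.64% higher and 7.66% lower), with 3 higher and 2 lower in MS_O. Without C_O72 and MS_W95 they did not overlap for 5 genes that were higher and 4 that were lower (25.7% against 22.3% of all tested genes, 9.27% higher and 13% lower), and 7 genes had an unadjusted p under 0.05 (20% against 8.54% of all tested genes), 3 of them higher (Scn8a, Cacnb3 and Cacna1i). In the 10 libraries Cacna2d2 passed the adjusted threshold in limma, with a log2FC of -0.87 (SE 0.11, adjusted p = 0.0291), as did 0.271% of all tested genes (over all alternatives its adjusted p ran up to 1.0), but its log2 ratio of -0.96 missed the DEG criteria, which 2 channel genes met, Scn9a among them (5.71% against 3.36% of all tested genes). MS_W is shared with the first comparison, so that the 2 differences of Cacna2d2 and of Scn9a are not independent. Of the partners, Stac2 alone met the DEG criteria (2.86% against 2.81% of all tested genes; none in the 10 libraries), higher in MS_O, with a log2FC of 0.99 (SE 0.26, adjusted p = 0.592).

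Whether the difference between stressed and unstressed mice itself differed between oil and water was tested as an interaction. Limma called 0 channel genes and 0% of all tested genes after adjustment, edgeR called 0 and DESeq2 called 1. Over all 21393 tested genes edgeR called 0 and DESeq2 151. In limma, 5 channel genes had an unadjusted p under 0.05 (14.3% against 7.23% of all tested genes). Cacna2d2 had the smallest p, with an interaction of -1.57 (SE 0.38, adjusted p = 0.507) on the log2 scale, -1.02 (SE 0.16, adjusted p = 0.0825) in the 10 libraries and, over all alternatives, an adjusted p from 0.00801 in DESeq2 to 1.0. Scn9a, Scn2b, Scn4b and Cacna1d were the other 4, each at an adjusted p of 0.665. Without the 2 libraries, 8 channel genes had an unadjusted p under 0.05 (22.9% against 7.51% of all tested genes), and limma called 0 after adjustment against 0.145% of all tested genes. A difference of the stress effect between oil and water was not established for any channel gene by limma.

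C_O72 and MS_W95 stood apart in the channel genes as well. Both lay below all other 10 libraries for 10 of the 35 tested channel genes (28.6% against 11.7% of all tested genes) and above all of them for 0 (0% against 16.3% of all tested genes). Among these genes were Cacna1d, Cacna1h, Cacna1i, Cacna2d1, Cacnb1, Cacnb3, Cacng3, Cacng6 and Cacng8. Cacnb3, for example, had 10.1 and 14.9 in these libraries and at least 56.7 in the others, and Cacng8 had 4.85 and 5.04 and at least 14.9. Cacng7 and Cacna2d3 did not follow this pattern. Cacna1a, Cacna1g and Cacng2, which are known from Purkinje and granule cells of the cerebellum, had their highest FPKM in MS_W95 (19.5, 18.1 and 17.1), whereas C_O72 (9.87, 7.41 and 13.3) lay among the other libraries.

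**Figure D5:**
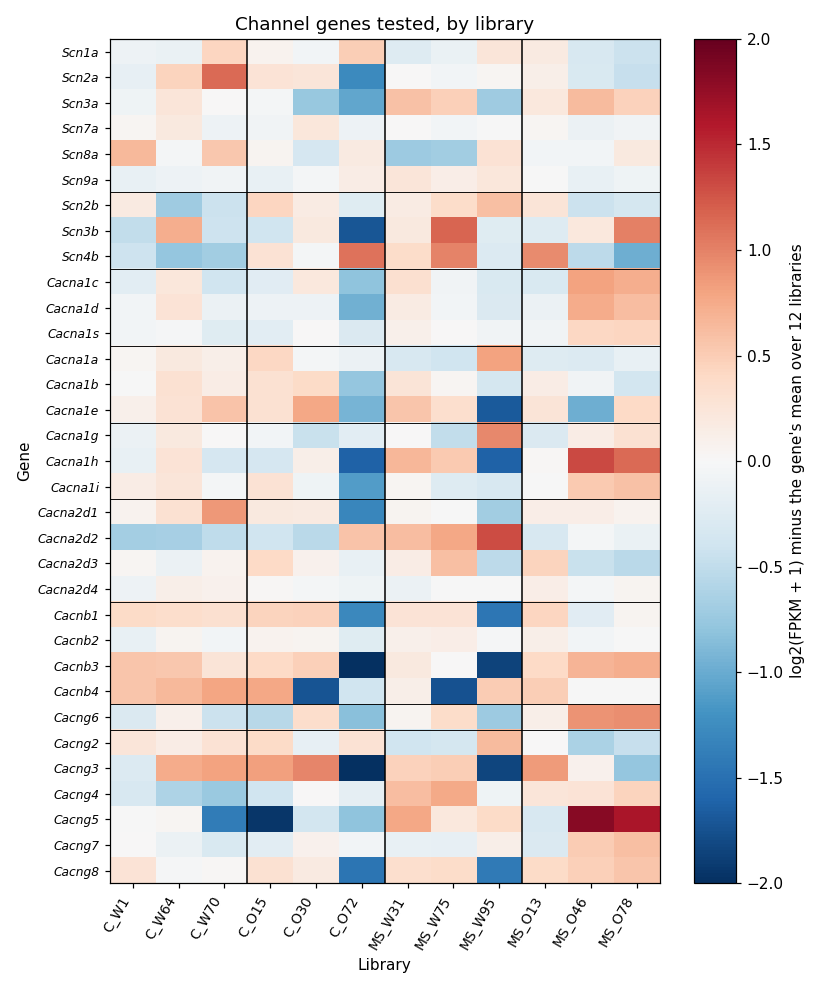
Difference of log2(FPKM + 1) from the mean of the 12 libraries for 33 tested channel genes (rows, by subunit class) in each library (columns, by group), with colours that end at 2 and -2. The columns of C_O72 and MS_W95 share blue cells at Cacnb1, Cacnb3, Cacna1h, Cacng3 and Cacng8, and MS_O46 and MS_O78 share red cells at Cacng5, Cacna1h and Cacng6.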

How the data were processed

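Poly(A) RNA of 12 whole mouse brains was sequenced on 1 library per mouse. Per the labels, the authors used cutadapt 1.9, HISAT2 2.0.4 and StringTie 1.3.4d with build mm10. The table they deposited holds FPKM values (fragments scaled for transcript length and library depth) and estimated counts of fragments per gene. The authors listed a gene without signal at an FPKM of 0.0001. Whether counting used strand is not given in the sources used here. Gene starts and ends are those of the table.

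Groups were compared with limma 3.58.1 under R 4.3.3 (lmFit, then eBayes with a trend) on log2(FPKM + 1), in 1 fit of the 4 groups over the 21393 genes whose mean FPKM reached 0.1, with Benjamini-Hochberg adjustment over all of them. Fold changes on this scale understate the change of low genes. The DEG criteria asked for p under 0.05 before adjustment and for group mean FPKM values more than 1 apart on the log2 scale. Calls were also made on the estimated counts with edgeR 4.0.16 and DESeq2 1.42.0, and in limma with a pseudocount of 0.1, other filters and scalings, a fit of only the groups compared, a linear model per gene with library size as a covariate, and each library left out. Library size in that model was the sum of log2(FPKM + 1) over the detected genes up to an upper quantile of the library, not its depth. The linear model per gene was set up after that of Ballgown, with which the study selected its DEGs. For a comparison of 2 groups, the counts and ranges given leave out only libraries of these groups. A fit of 10 libraries without C_O72 and MS_W95 was added after seeing the data. The limma fit of the 4 groups, edgeR and DESeq2 were tested on simulated data for MS_W against C_W, and the other settings were not.

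Values in every library are given for channel genes called in any comparison with 12 or 10 libraries, for the 2 most abundant of each class and for the 5 with the widest range at a mean FPKM of at least 1. Of the 40 channel genes, 2 enter the counts but are not reported here one by one. Partner genes are named where they met the DEG criteria with 12 or 10 libraries. The channel genes, marker lists and partner lists were chosen with earlier results of these data known. The main limma p-values rest on the spread between mice within groups, pooled over all groups and moderated by a trend over all genes. There were 3 mice per group, or 2 in C_O and in MS_W in the 10 libraries. Tables were read in Python 3.11.15 with pandas 2.3.3.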

Additional observations from a re-analysis of the deposited data

How the results depend on the processing

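Counts are of channel genes, by the DEG criteria unless called adjusted. For MS_W against C_W, 3 became 1 (Scn9a) in the linear model per gene with library size as a covariate and 6 in the 10 libraries. The adjusted count of 0 became 1 (Cacna2d2) in the fit of only the 2 groups and 3 in DESeq2 (Cacna2d2, Cacng4 and Scn9a) and in the 10 libraries. For MS_O against C_O, 6 became 0 in the linear model and 3 in edgeR (Cacng5, Cacna1s and Scn3a), and the adjusted count of 0 became 1 in DESeq2 (Cacng5). For C_O against C_W, 0 became 1, Scn4b each time, with a pseudocount of 0.1, in the fit of 2 groups, in the linear model and in DESeq2. For MS_O against MS_W, 2 became 1 with a mean FPKM of at least 1, which leaves Scn9a untested, and the adjusted count of 0 became 1 (Cacna2d2) in DESeq2 and in the 10 libraries. The interaction went from 0 to 1 (Cacna2d2) in DESeq2. Except where fewer genes or libraries were tested, the cause was not tested.

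With 1 library of the 2 groups compared left out (any of the 12 for the interaction), counts ran from 2 to 6 for MS_W against C_W (adjusted 0 to 1), from 2 to 8 for MS_O against C_O, from 0 to 3 for C_O against C_W and from 2 to 6 for MS_O against MS_W. The adjusted counts of the last 3 and of the interaction stayed at 0. Fits without a library of the other groups, which share the estimate of the spread, were not counted for channel genes. Without C_O72, 101 of all tested genes passed the adjusted threshold for MS_W against C_W and 31 for MS_O against MS_W, against 1 in each with all libraries. Shares of all tested genes by the DEG criteria were counted only with 12 and with 10 libraries. Whether the channel gene counts without 1 library moved more than those of all tested genes was therefore not tested. The count of MS_W against C_W was 6 without MS_W95, where Scn8a and Scn4b were among those added. For C_O against C_W it was 3 without C_O15 (Cacnb4, Cacna2d1 and Scn3a, all lower), 2 without C_O30 (Cacna2d1 lower and Scn4b higher) and 1 without C_W1 (Scn2a lower). For MS_O against MS_W it was 6 without MS_O13, where Cacna1s, Cacng5 and Cacng6 (higher) and Scn4b (lower) were added, and 3 without MS_W75, where Cacng6 was added.

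Only in the linear model with library size did a direction turn, for Cacng4 (-0.95) and Scn2b (-3.60) in MS_W against C_W. How far this covariate, which is not the depth, moved with the group was not examined. Over the 21 pairs of a gene and a comparison, 139 of 179 single alternatives kept the direction and the side of the threshold, 38 kept the direction only and 2 turned. With 1 library left out these counts were 100 and 56 of 156, and in the 10 libraries 16 and 5 of 21, with no turn in either. No paired analysis was made, because each group held different mice and no pairing between them is stated. With 3 mice per group, a call that is missed does not show that a gene was the same in both groups.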
